A study of Mus musculus with 55 samples.

Results

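The Cyp4 genes of the mouse encode cytochrome P450 enzymes of the endoplasmic reticulum that add a hydroxyl group to the far (omega) end of fatty acids and of lipid mediators such as arachidonic acid and leukotrienes. In liver, the hydroxylated fatty acids are passed on to dehydrogenases and to peroxisomal oxidation, a route that is used more when fatty acids are plentiful. Several Cyp4a genes are textbook targets of PPAR-alpha, the nuclear receptor that is activated by fatty acids, and Cyp4a12a is known for higher expression in males. The 10 genes described here were chosen by symbol: Cyp4a10, Cyp4a14, Cyp4a12a, Cyp4a12b, Cyp4a31, Cyp4a32, Cyp4f13, Cyp4f14, Cyp4f15 and Cyp4v3. All 10 were found among the 37620 genes quantified, and all 10 passed the expression filter of the test among lines.

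The data are RNA-seq of the livers of 55 mice of 29 Collaborative Cross (CC) lines, which are recombinant inbred lines bred from a common set of inbred founder strains, so that mice of 1 line are close to genetically identical. The mice were males between 8 and 11.9 weeks old, fed rodent chow with no treatment named, with body weights between 12.8 and 38 g. A group is a line: 8 lines had 1 mouse, 16 had 2 mice and 5 had 3 mice, and mice of a line are numbered here in the order of their records. Levels are in FPKM, the fragments of a gene scaled to transcript length and to the total fragments of the mouse, so that levels of different genes can be set side by side. Errors are SDs over the mice of a line, and a line with 1 mouse has none.

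The depth was between 20.5 and 34.0 M estimated fragments per mouse (median 27.7 M). The hepatocyte markers Alb and Apoa1 were at medians of 31174 and 7269 FPKM, Umod and Slc34a1 of the kidney were at medians of 0 with highest values of 0.04 and 0.02 FPKM, and the adipocyte markers Adipoq and Plin1 were at medians of 0. Of the 47 mice with a line mate, 42 were most similar in expression to a line mate. The exceptions were mouse 2 of IL-2146 and 4 mice of IL-1052 and IL-2750, each of which was most similar to a mouse of the other of these 2 lines. Results are therefore also given without IL-1052 and IL-2750 where this changes them. Mouse 3 of IL-785 had 39.5 FPKM of Xist, the RNA of the inactive X chromosome, against at most 0.12 in the other 54 mice, together with 12.6 FPKM of the Y-linked Ddx3y, within the range of the others (5.49 to 19.0). Xist and Ddx3y were looked at after the values of the lines were known.

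The Cyp4a genes lie together on chromosome 4 (mouse build NCBIM37), between chr4:114971651 and chr4:115294207. From the low to the high coordinate they are Cyp4a12a, Cyp4a12b, Cyp4a14, Cyp4a10, Cyp4a31 and Cyp4a32, with Cyp4a14 on the minus strand (chr4:115158805-115168747) and the other 5 on the plus strand. Cyp4f15 (chr17:32822572-32840297, plus strand), Cyp4f14 (chr17:33042016-33054023, minus strand) and Cyp4f13 (chr17:33061633-33084347, minus strand) form a second group, and Cyp4v3 stands alone at chr8:46391155-46418570 on the minus strand. Cyp4v3 overlaps Klkb1 on the same strand, and 9.10% of the 50-base windows of its reference transcript (2951 bases) are shared with Klkb1. The same transcript has 3806 bases in the annotation that was quantified, so this share does not cover all of it. Cyp4a10 overlaps AL627182.1 on the same strand, and Cyp4a12b overlaps Gm12837 on the other strand, so fragments from the overlaps of these genes are uncertain.

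Some members are near-identical, so that a part of their fragments cannot be assigned to 1 gene. The coding sequences of Cyp4a12a and Cyp4a12b differ at 23 of 1527 positions (98.5% identity), and their longest identical stretch is 342 bases. Over the longest coding transcripts, 48.9% of the 50-base windows of Cyp4a12a and 49.4% of those of Cyp4a12b are shared between both. The 60 coding bases within 1 exon that hold the most differences, in exon 6 of 12, are shown with the 4 differing positions in capitals, to show how alike both genes are even where they differ most. They were read from NCBIM37, plus strand, at chr4:114999233-114999292 and chr4:115105486-115105545.
Cyp4a12a: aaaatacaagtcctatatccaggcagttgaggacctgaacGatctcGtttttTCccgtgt
Cyp4a12b: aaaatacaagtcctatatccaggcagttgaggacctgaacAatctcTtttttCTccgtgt

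Cyp4a10, Cyp4a31 and Cyp4a32 form a second such set. Their coding sequences of 1530 bases are 97.2% identical between Cyp4a10 and Cyp4a32, 96.6% between Cyp4a10 and Cyp4a31 and 96.0% between Cyp4a31 and Cyp4a32, with 77 positions at which the 3 are not all alike. Of their 50-base windows, 30.5%, 31.5% and 46.8% (Cyp4a10, Cyp4a31 and Cyp4a32) are shared with another gene. For Cyp4a14 it is 0 of 2447 windows, and for the 3 Cyp4f genes between 2.12% and 2.75%. The transcripts read for Cyp4a31 and Cyp4a32 hold coding bases only, unlike those of Cyp4a10 and Cyp4a14, so these percentages are not strictly comparable. For Cyp4a31 it was ENSMUST00000030486, at a median of 0% of the gene, whereas ENSMUST00000030480 was at 66.7%. The 60 bases with the most differences lie in exon 2, at chr4:115192245-115192304, chr4:115237625-115237684 and chr4:115274875-115274934, with the 9 positions at which the 3 are not all alike in capitals.
Cyp4a10: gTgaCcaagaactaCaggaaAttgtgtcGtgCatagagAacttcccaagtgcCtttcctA
Cyp4a31: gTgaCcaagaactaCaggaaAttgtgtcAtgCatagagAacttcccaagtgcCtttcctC
Cyp4a32: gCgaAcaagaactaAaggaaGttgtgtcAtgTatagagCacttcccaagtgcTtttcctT

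The first question was how much of each enzyme's transcript a liver holds. Cyp4a12a, an arachidonic acid hydroxylase, had the highest median level, 283 FPKM, followed by Cyp4v3 (98.5 FPKM), the mouse counterpart of a human gene of inherited retinal disease, and Cyp4f14 (85.3 FPKM), a leukotriene B4 hydroxylase. Medians of Cyp4f15, Cyp4a12b, Cyp4f13, Cyp4a10 and Cyp4a32 lay between 37.8 and 18.4 FPKM, and those of Cyp4a14 and Cyp4a31 were 2.28 and 1.79 FPKM. The summed FPKM of all Cyp4 genes ranged from 355 in mouse 3 of IL-2156 to 1992 in mouse 1 of IL-521 (median 679), and Cyp4a12a and Cyp4a12b together made up a median of 48.5% of it. The share of Cyp4a10, Cyp4a31 and Cyp4a32 together ran from 1.75% to 43.5% between mice, and that of Cyp4a14 from 0% to 35.6%.

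Of the 11 other Cyp4 genes in the files, Cyp4b1 (median 3.22 FPKM, highest 10.1), Cyp4f17 (median 3.07, highest 9.2) and Cyp4f16 (median 0.9, highest 2.72) were the best represented. Cyp4x1 had a median of 0.48 FPKM. Cyp4f39, Cyp4f18, Cyp4f41-ps, Cyp4f40, Cyp4a28-ps, Cyp4a29-ps and Cyp4a30b-ps had medians of at most 0.09 FPKM.

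The next question was which genes differ among lines. With edgeR's quasi-likelihood F test over 47 mice (the 21 lines that had line mates), 9 of the 10 genes differed among lines at an adjusted p under 0.05, and Cyp4a12a did not (adjusted p = 0.0638). Among all 15285 genes tested, 88.5% differed among lines, so that 9 of 10 is close to the share of all genes. The labels do not say whether line mates shared a litter or cage, and the p-values measure differences among lines against the spread of line mates only. The adjusted p-values of edgeR were 9.45e-11 for Cyp4f14, 8.48e-08 for Cyp4f13, 7.69e-07 for Cyp4f15, 1.19e-06 for Cyp4a12b, 2.03e-06 for Cyp4a14, 2.36e-06 for Cyp4a32, 2.56e-05 for Cyp4a31, 0.000455 for Cyp4v3 and 0.000951 for Cyp4a10.

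The genes were next compared by the share of their variance between lines. Differences between genes in this share were not tested. The intraclass correlation, the part of the variance that lies between lines, was computed on normal scores of FPKM over all 55 mice. It was 0.775 for Cyp4f15, 0.751 for Cyp4f13, 0.748 for Cyp4a12b, 0.705 for Cyp4a14 and 0.690 for Cyp4a31, with jackknife standard errors between 0.0832 and 0.149. It was between 0.481 and 0.547 for Cyp4v3, Cyp4a32, Cyp4f14, Cyp4a10 and Cyp4a12a, with standard errors between 0.167 and 0.271. The median over 5951 variable genes was 0.592, so that 5 of the 10 genes lay above and 5 below it. Without IL-1052 and IL-2750 all 10 genes were at 0.5 or above, against 8 with these lines.

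Line mates were close for Cyp4f13, Cyp4f15 and Cyp4v3 and far apart for Cyp4a10, Cyp4a14 and Cyp4a31. The median fold between the highest and lowest mouse of a line was 1.09 for Cyp4f13, 1.18 for Cyp4f15 and Cyp4v3, 1.16 for Cyp4a12a and 1.27 for Cyp4f14. It was 2.16 for Cyp4a10, 2.37 for Cyp4a31 and 3.61 for Cyp4a14. Line mates differed more than 2-fold in 12 of 21 lines for Cyp4a10 and in 14 of 20 for Cyp4a14 (the line with a mouse at 0 left out), against 0 of 21 for Cyp4f13, Cyp4f15 and Cyp4v3. In the order of the 29 line means on the log2(FPKM + 1) scale, at most 2 of the 28 gaps between neighbours exceeded the SD within lines for any gene, and none did for Cyp4a10, Cyp4a14 and Cyp4a12b. Neighbouring lines in the order therefore mostly differed by less than the spread of line mates, while the ends of the order were 4.38 (Cyp4a10) to 18.6 (Cyp4f14) within-line SDs apart.

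Cyp4a10 and Cyp4a14 are fatty acid omega-hydroxylases and the members best known as PPAR-alpha targets. Cyp4a14 had 18 of 55 mice below 1 FPKM and 7 above 100 FPKM. In IL-521 it was at 582 and 165 FPKM, and in the single mice of IL-1452, IL-557 and IL-2126 at 384, 241 and 169 FPKM. In IL-1513 it was at 0.46 and 0.36 FPKM, in IL-519 at 0.6 and 0.67, and in IL-670 at 0.57, 1.72 and 0.31. The mice of these 3 lines were all below every mouse of IL-521, IL-2011, IL-3438, IL-3348, IL-3912 and IL-4457. In mouse 2 of IL-2146 no fragment of Cyp4a14 was counted among 30.9 M, where a count of 0 allows up to 3 fragments (counting error only).

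Cyp4a10 ranged from 2.4 FPKM in mouse 1 of IL-785 to 554 FPKM in mouse 1 of IL-521. The lowest line mean was 4.60 ± 2.00 FPKM (SD, n = 2) in IL-1061 and the highest 347 ± 292 (SD, n = 2) in IL-521, a ratio of 75.5. The spread within a line could be as large as that between lines. The mice of IL-785 had 2.4, 16.6 and 187 FPKM, the highest in the mouse with Xist, and the 2 mice of IL-2011 had 25.1 and 204 FPKM. In IL-3438, by contrast, both mice were close (119 and 126 FPKM), as they were in IL-72 (9.32 and 8.64 FPKM). Cyp4a10 was above Cyp4a14 in 48 of 55 mice. Without mouse 3 of IL-785, the adjusted p of edgeR was 7.06e-05 for Cyp4a10 and 9.42e-08 for Cyp4a14.

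Cyp4a31 and Cyp4a32 are close copies of Cyp4a10 with less known substrates. Cyp4a31 ran from 0.08 to 24.6 FPKM with its highest value in the single mouse of IL-2126, and line means ran from 0.155 ± 0.0636 (SD, n = 2) in IL-1061 upwards. Cyp4a32 ran from 5.01 to 291 FPKM, with the lowest line mean in IL-2680 (6.50 ± 2.11, SD, n = 2) and the highest in IL-521 (204 ± 122, SD, n = 2). The balance between Cyp4a32 and Cyp4a10 ranged widely over lines, and differences among lines in it were not tested. It also rests on how the fragments shared by these genes were divided. In IL-611 the 3 mice had 72.6, 72.8 and 110 FPKM of Cyp4a32 against 21.3, 27.5 and 42.7 FPKM of Cyp4a10. In IL-2011 they had 9.67 and 9.03 FPKM of Cyp4a32 against 25.1 and 204 FPKM of Cyp4a10, so the order of both genes was the other way round in every mouse of these lines. The lowest share of Cyp4a32 in the sum of Cyp4a10, Cyp4a31 and Cyp4a32 was 3.88% (IL-1452, 1 mouse). The highest was 74.7 ± 3.40% (SD, n = 3) in IL-2750, a line whose mice were not all nearest to their line mates. This share was 72.6 ± 2.81% (SD, n = 3) in IL-611 but 14.4 ± 14.6% (SD, n = 2) in IL-2011. With the 3 genes summed before the fit, the lines still differed (edgeR, adjusted p = 0.00176), with an intraclass correlation of 0.406.

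**Figure D1:**
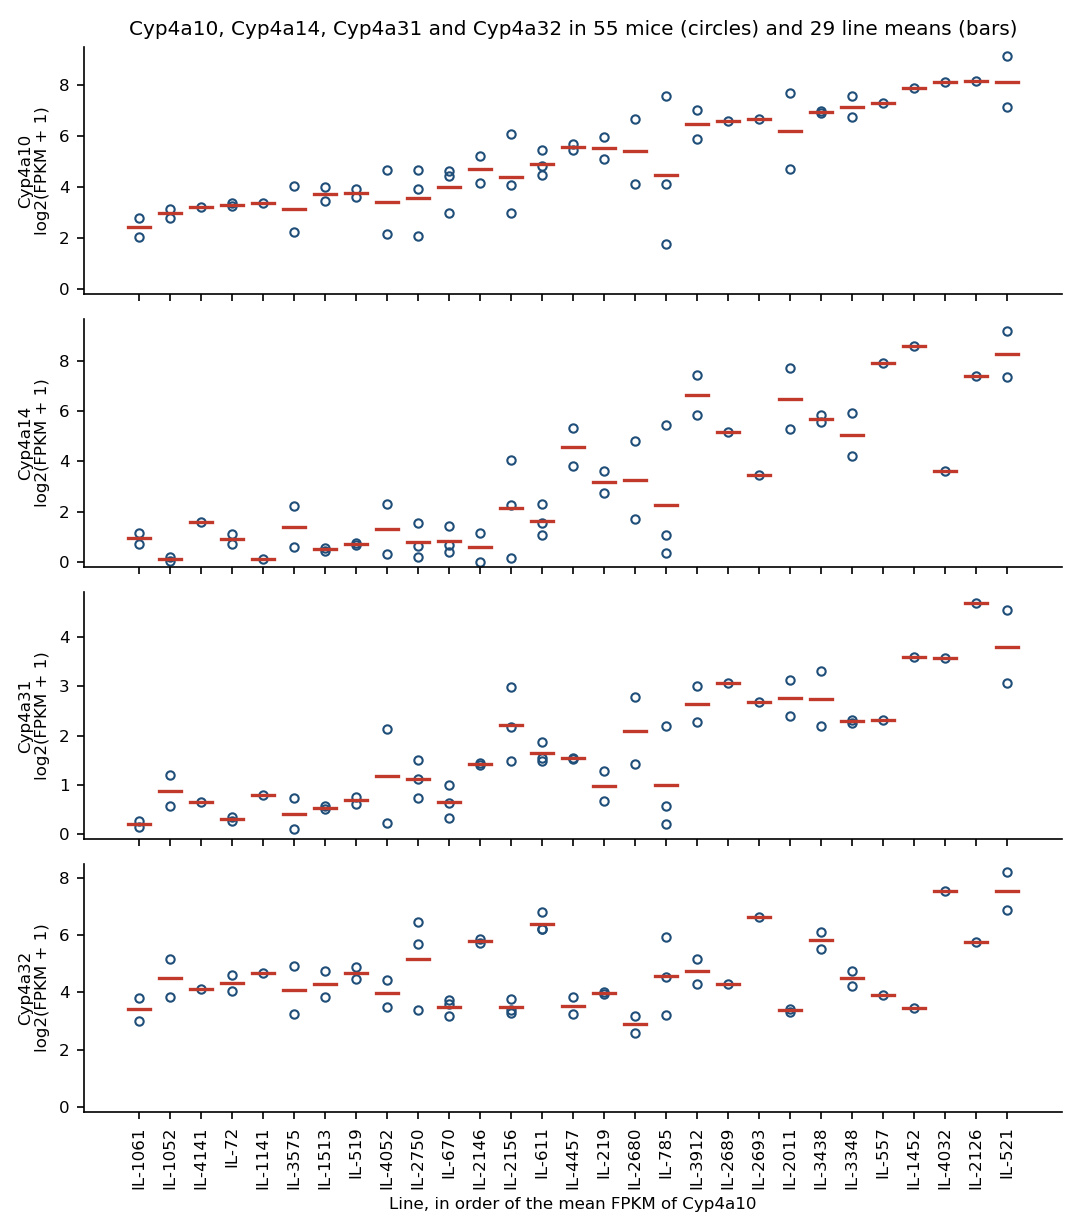
Level of Cyp4a10, Cyp4a14, Cyp4a31 and Cyp4a32 as log2(FPKM + 1) in each of 55 mice (circles) with the mean of each of 29 lines (red bars), lines in the order of mean Cyp4a10. Cyp4a14 and Cyp4a31 rise along the order of Cyp4a10, from below 1 FPKM in 18 mice to 582 FPKM for Cyp4a14, whereas Cyp4a32 is high both in the line with the most Cyp4a10 (IL-521) and in IL-611, in the middle of the order.

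Cyp4a12a and Cyp4a12b are known as male-biased genes of liver and kidney. Cyp4a12a was above Cyp4a12b in 54 of 55 mice. The exception was the single mouse of IL-2126, with 29.8 FPKM of Cyp4a12a, the lowest of all mice, and 39.5 FPKM of Cyp4a12b. In the other mice Cyp4a12a was between 77.0 and 494 FPKM. Line means of Cyp4a12b ran from 4.24 ± 0.721 FPKM (SD, n = 2) in IL-219 to 122 ± 10.1 (SD, n = 2) in IL-2146 and 141 in the single mouse of IL-4032. In IL-3575 both mice had 15.7 and 15.8 FPKM of Cyp4a12b, and in IL-611 the 3 mice had 64.9, 62.0 and 68.4 FPKM, so these lines did not overlap. The summed level of both genes differed among lines (edgeR, adjusted p = 0.0056), with an intraclass correlation of 0.665.

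That Cyp4a12a alone was not called among lines turned on few mice. The 2 mice of IL-2680 had 98.6 and 401 FPKM and the 3 mice of IL-2156 had 329, 77.0 and 133 FPKM. Leaving out mouse 1 or mouse 2 of IL-2680 gave an adjusted p of 0.0091 or 0.0026, and leaving out mouse 1 or 2 of IL-2156 gave 0.00317 or 0.0379. Leaving out mouse 1 or 2 of IL-1052 gave 0.0391 or 0.0269 (edgeR throughout). These were the 6 of 47 mice whose removal changed the call. The DESeq2 likelihood ratio test gave an adjusted p of 0.00514, limma on normal scores 0.00385, and edgeR without a filter on low counts 0.0371.

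Genes known for higher expression in female liver were high in several, but not all, of the mice with little Cyp4a12a. Over the 55 mice, Cyp2b9 had a median of 0.38 FPKM (0 to 170), Cyp3a41a 0.64 FPKM (0.07 to 1549) and Sult3a1 0.03 FPKM (0 to 717). In mouse 1 of IL-2680, where Cyp4a12a was at 98.6 FPKM, Cyp3a41a was at 1549 FPKM and Cyp2b9 at 68.7 FPKM, against 0.22 and 0.12 FPKM in its line mate. The mouse of IL-2126 had the most Cyp2b9, 170 FPKM, but 0.79 FPKM of Cyp3a41a. In IL-219, with Cyp4a12a at 130 and 112 FPKM, Cyp3a41a was at 259 and 149 FPKM and Cyp2b9 at 106 and 70.4 FPKM. Mouse 3 of IL-785 had 334 FPKM of Cyp3a41a and 145 FPKM of Cyp4a12a, and its line mates had 0.67 and 11.1 FPKM of Cyp3a41a. In IL-2156 both Cyp2b9 and Cyp3a41a were at most 0.43 FPKM in all 3 mice, although mice 2 and 3 had 77.0 and 133 FPKM of Cyp4a12a. Mouse 1 of IL-3575, by contrast, had the highest Sult3a1, 717 FPKM, with Cyp4a12a at 307 FPKM. Across the 29 line means, Spearman's rho of Cyp4a12a was -0.51 with Cyp2b9 and -0.27 with Cyp3a41a. That of Cyp4a12b was -0.48 and -0.30, and the median over all genes was 0.07 with each of both. Cyp2b9 and Cyp3a41a had medians below 1 FPKM, so these rho order many values near the floor. For Sult3a1, which was near 0 in most mice, no rho is given. The part of the female-biased genes in these levels was not tested.

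**Figure D2:**
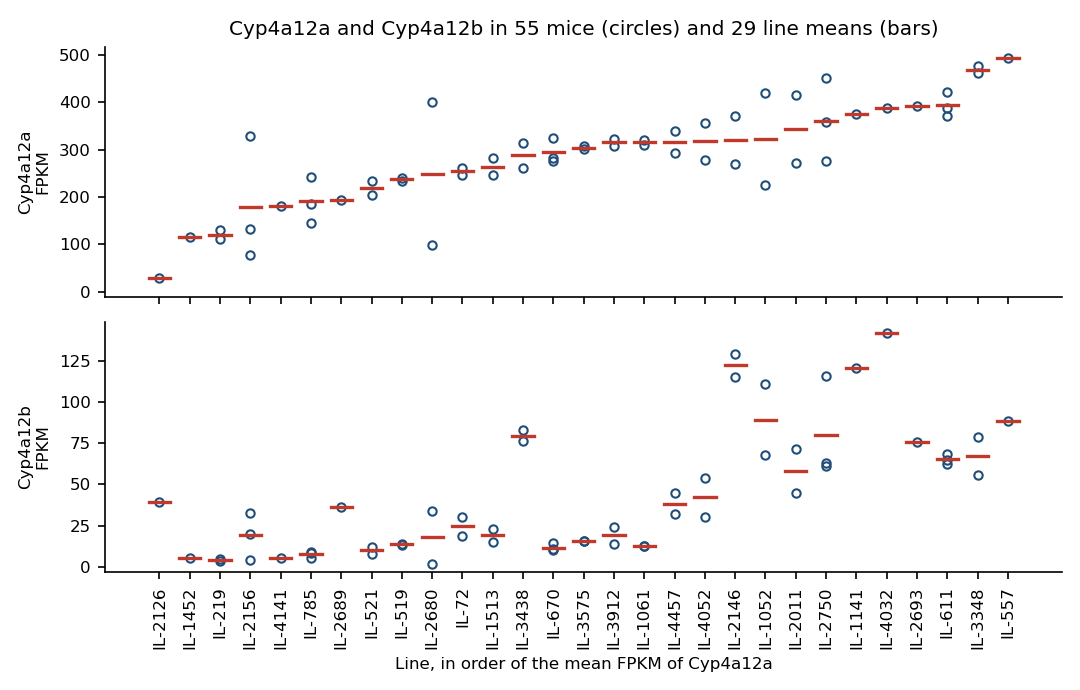
FPKM of Cyp4a12a and Cyp4a12b in each of 55 mice (circles) with line means (red bars), lines in the order of mean Cyp4a12a, on linear axes. IL-2126 has the lowest Cyp4a12a (29.8 FPKM), the mice of IL-2156 and IL-2680 lie far apart, and Cyp4a12b is at 122 ± 10.1 FPKM in IL-2146 against 4.24 ± 0.721 FPKM in IL-219.

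Cyp4f14, which hydroxylates leukotriene B4, was all but missing from 1 line. The 3 mice of IL-785 had 0.64, 0.67 and 1.03 FPKM (39, 38 and 71 estimated fragments), a line mean of 0.78 ± 0.217 FPKM (SD, n = 3). The next lowest line was IL-670, at 35.3, 36.9 and 44.8 FPKM, and the highest was IL-219, at 129 and 121 FPKM (125 ± 5.52, SD, n = 2), 160 times the mean of IL-785. No mouse of another line was below 35.3 FPKM, so IL-785 did not overlap with any other line, and its mouse with Xist was like its line mates. Of its neighbours, Cyp4f15 was at 36.7 ± 4.85 FPKM (SD, n = 3) in IL-785, rank 14 of 29 lines from the lowest. Cyp4f13 was at 24.1 ± 1.04 FPKM (SD, n = 3), rank 5 from the lowest, with all 3 mice below the median mouse. Without IL-785, Cyp4f14 still differed among lines, with an adjusted p of 0.024 (edgeR). Its intraclass correlation rose from 0.521 on normal scores, which hold only ranks, to 0.942 on log2(FPKM + 1), which keeps the distance of IL-785.

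Cyp4f15 and Cyp4f13 showed smaller but steady differences. Cyp4f15 ran from 20.3 ± 3.49 FPKM (SD, n = 3) in IL-670 to 66.2 ± 10.2 (SD, n = 2) in IL-3575, a ratio of 3.26. The mice of IL-670 had 18.4, 24.3 and 18.1 FPKM, and those of IL-3575 58.9 and 73.4 FPKM. Cyp4f13 ran from 22.2 ± 2.21 FPKM (SD, n = 3) in IL-2156 up to 39.6 FPKM in IL-2126 (1 mouse), a ratio of 1.78, and IL-670 came next to highest, at 39.5 ± 3.05 FPKM (SD, n = 3). In IL-670, Cyp4f14 and Cyp4f15 were thus among the lowest of all lines while Cyp4f13 was among the highest, in each of its 3 mice.

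Cyp4v3 is an omega-hydroxylase whose human counterpart, CYP4V2, is mutated in Bietti crystalline dystrophy. Its line means ran from 60.8 ± 17.6 FPKM (SD, n = 2) in IL-2011 to 141 ± 5.32 (SD, n = 2) in IL-4052, a ratio of 2.32. The 2 mice of IL-4052 (137 and 145 FPKM) were above both of IL-2011 (48.3 and 73.2 FPKM). The highest single mouse, at 169 FPKM, belonged to IL-3348, whose other mouse had 111 FPKM.

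**Figure D3:**
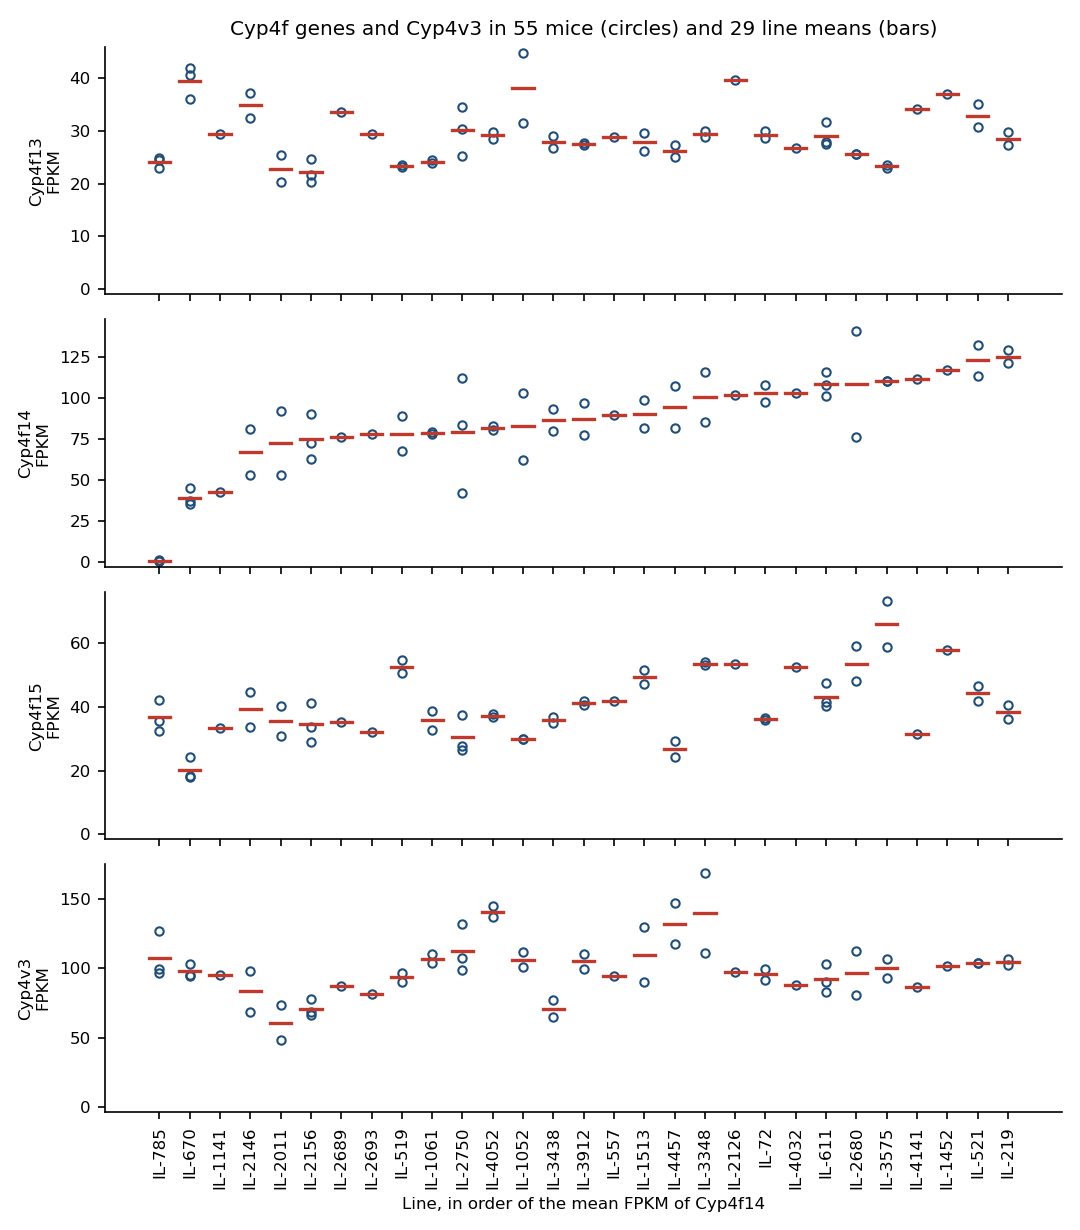
FPKM of Cyp4f13, Cyp4f14, Cyp4f15 and Cyp4v3 in each of 55 mice (circles) with line means (red bars), lines in the order of mean Cyp4f14, on linear axes. Cyp4f14 is at 0.78 ± 0.217 FPKM in IL-785 and at 35.3 FPKM or more in every other mouse, while Cyp4f13 and Cyp4f15 of IL-785 lie inside the range of the other lines.

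The design also allows the question of which members vary together. Among the 45 pairs, 4 correlated across the 29 line means of log2(FPKM + 1) (two-sided permutation test with 100000 permutations, Benjamini-Hochberg adjusted over the 45 pairs), all positively. Cyp4a10 correlated with Cyp4a14 (r = 0.89, rho = 0.86, adjusted p = 0.00015 for each) and with Cyp4a31 (r = 0.92, rho = 0.91, adjusted p = 0.00015 for each), and Cyp4a14 with Cyp4a31 (r = 0.84, rho = 0.82, adjusted p = 0.00015 for each). The raw permutation p of these 3 pairs was 1e-05, the smallest that the permutations can give. Without the 2 lines farthest from the median of the first gene, r was 0.86, 0.91 and 0.80. Cyp4a10 and Cyp4a31 share 50-base windows, so their estimates are not independent, but Cyp4a14 shares none with either.

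Cyp4a12a and Cyp4a12b were the fourth pair (r = 0.49, adjusted p = 0.0445, rho = 0.74, adjusted p of rho = 0.000225, permutation tests). Without IL-2126 and IL-1452, the lines farthest from the median, r was 0.77. The call on r was lost in 21 of 29 cases with 1 line left out, with r between 0.44 and 0.79. It was also lost without IL-1052 and IL-2750 (r = 0.47, adjusted p = 0.0947). Within lines the pair gave r = 0.41 and was not called (permutation test, adjusted p = 0.82). These genes share about as many windows as they do not, so their estimates are not independent.

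Cyp4f14 and Cyp4f15 correlated by rank only (rho = 0.54, adjusted p = 0.0247, r = 0.26, adjusted p = 0.524, permutation tests). With IL-785 and IL-670 left out, r was 0.45. None of the pairs of a Cyp4a gene with Cyp4f13, Cyp4f14, Cyp4f15 or Cyp4v3 had an adjusted p under 0.05 across lines.

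Deviations of mice from their line mates were compared next. As deviations from the line mean in the 47 mice with line mates, 6 pairs correlated, again all positively (permutation within lines, adjusted over 45 pairs). These were Cyp4a10 with Cyp4a14 (r = 0.93), Cyp4a31 (r = 0.87) and Cyp4a32 (r = 0.69), Cyp4a14 with Cyp4a31 (r = 0.87) and Cyp4a32 (r = 0.54), and Cyp4a31 with Cyp4a32 (r = 0.56). The adjusted permutation p was 0.0003 for the 3 pairs without Cyp4a32, and 0.00596, 0.0301 and 0.0391 for the pairs of Cyp4a32 with Cyp4a10, Cyp4a14 and Cyp4a31. Of the 6 pairs, 3 also passed across lines. Cyp4a10, Cyp4a31 and Cyp4a32 share 50-base windows, so their estimates are not independent of each other, whereas Cyp4a14 shares none. Cyp4a32 with Cyp4a10 gave r = 0.42 across lines (adjusted permutation p = 0.152), and the difference between r across and within lines was not tested. Leaving out mouse 3 of IL-785 lowered the within-line r of Cyp4a32 to 0.40 with Cyp4a14 and 0.45 with Cyp4a31, with adjusted permutation p-values of 0.0857 and 0.106. Without IL-1052 and IL-2750, whose mice were not nearest to their line mates in 4 of 5 cases, Cyp4a14 with Cyp4a32 was not called either (r = 0.60, permutation test, adjusted p = 0.0835). Leaving out single mice lost the call of these 2 pairs in 15 and 20 of 47 cases.

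**Figure D4:**
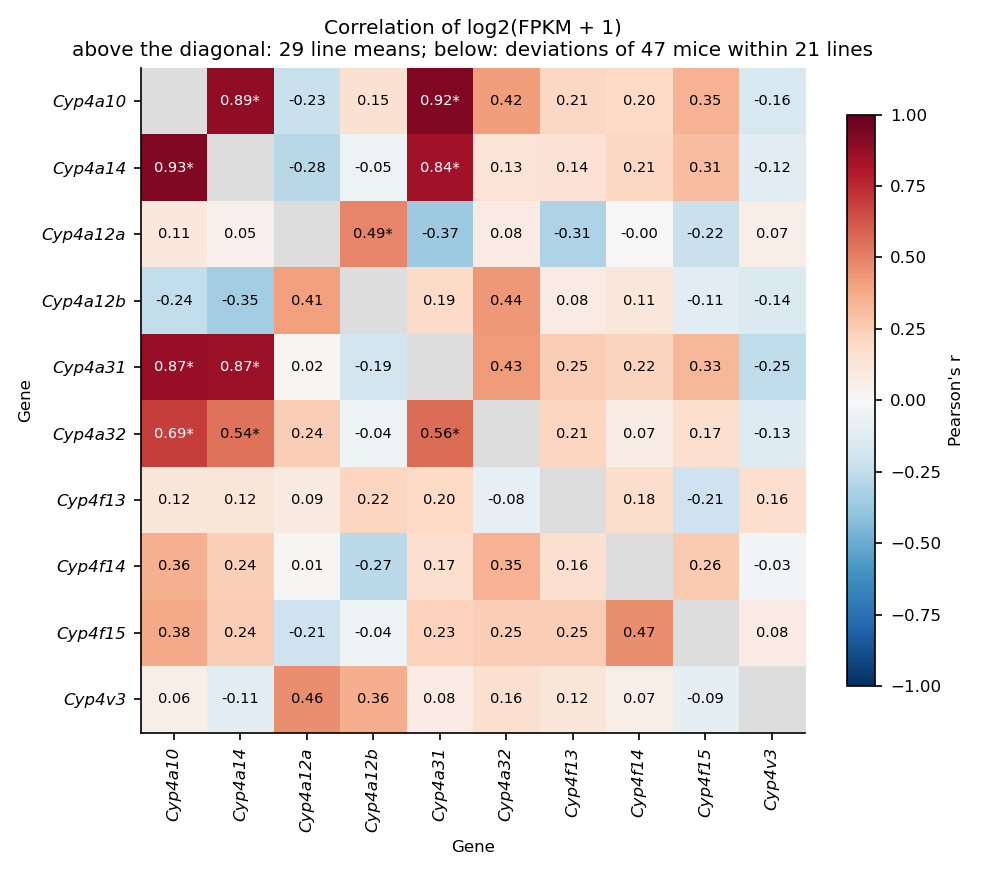
Pearson's r between each pair of the 10 genes, on log2(FPKM + 1), over 29 line means (above the diagonal) and over deviations from the line mean of 47 mice in 21 lines (below), with asterisks at an adjusted permutation p under 0.05. Cyp4a10, Cyp4a14 and Cyp4a31 form 1 block on both sides (r between 0.84 and 0.93), and Cyp4a32 joins it only below the diagonal. No Cyp4f gene or Cyp4v3 has an asterisk. Cyp4a10, Cyp4a31 and Cyp4a32 share sequence, as do Cyp4a12a and Cyp4a12b, so estimates within these sets are not independent.

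The lines were also compared with genes outside the family, over 10294 genes with a mean of at least 1 FPKM. These correlations across 29 line means describe the lines and carry no p, and they were ranked among many genes. The highest Spearman's rho with Cyp4a10 were those of Pctp (0.73), Acot1 (0.73) and Slc22a5 (0.72), the carnitine transporter, and those with Cyp4a14 were Atp13a3 (0.75), Cstf2t (0.74) and Acot4 (0.72). Acot1 and Acot4 are acyl-CoA thioesterases of the PPAR-alpha list. For Cyp4a31 they were Slc22a5 (0.73), Sh3yl1 (0.70) and Atg16l1 (0.70), and for Cyp4a32 Abhd6 (0.78), a monoacylglycerol lipase, Get4 (0.72) and 1190005I06Rik (0.71). Cyp4a12a was closest to Bbs10 (0.76), Gm15772 (0.74) and Ly6a (0.69), and Cyp4a12b to Golgb1 (0.72), Gm15772 (0.72) and C8b (0.68).

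Among the Cyp4f genes, Cyp4f14 was closest to Ehhadh (0.70), a peroxisomal enzyme of fatty acid oxidation, Fam82a1 (0.69) and 0610007L01Rik (0.68). Cyp4f13 was closest to Dbp (0.69), a transcription factor with a daily rhythm, Acsm1 (0.65) and Ndufb9 (0.65). Cyp4f15 was closest to Nudt3 (0.73), Tmem48 (0.73) and Fkbp14 (0.72). Cyp4v3 had the lowest top values, with Mrps23 (0.61), Pdhb (0.59) and Mospd1 (0.59).

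Of the 27 PPAR-alpha targets listed, 26 had a positive rho with Cyp4a10, against 73.9% of all genes compared, with a median of 0.50 against 0.15. With Cyp4a14 the median was 0.38 against 0.11 over all genes, and 25 of 27 were positive, against 69.3% of all genes. The median was 0.44 against 0.11 with Cyp4a31, and 0.39 against 0.08 with Cyp4a32. With Cyp4f14 it was 0.39 against 0.13, and with Cyp4f15 0.36 against 0.15. All 27 of 27 were positive with Cyp4f14 and with Cyp4f15, against 71.0% and 79.6% of all genes. The median was -0.02 with Cyp4a12a (11 of 27 positive, against 64.4% of all genes), 0.04 with Cyp4a12b and -0.06 with Cyp4v3. Fabp1, a fatty acid binding protein and the most abundant target (median 7978 FPKM), had rho of 0.27 with Cyp4a10. The list as a whole differed among lines in 25 of 27 genes (edgeR), close to the 88.5% of all genes.

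The receptors and their partners were compared in the same way. Ppara had a median of 22.4 FPKM (6.56 to 49.3) and rho of 0.09 with Cyp4a10 and 0.08 with Cyp4a14, below the median of all genes. Rxra, its partner (median 66.0 FPKM), had rho of 0.06 and 0.04, and Ncor1, a corepressor (14.9 FPKM), 0.24 and 0.17. Pparg, a related receptor (median 2.62 FPKM), had rho of 0.51 and 0.34. All 6 receptor and partner genes differed among lines (edgeR), where 88.5% of all genes did.

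Of 12 genes downstream of omega-hydroxylation, 11 differed among lines (edgeR), against 88.5% of all genes. All 12 had a positive rho with Cyp4a10 (median 0.28), as did 73.9% of the 10294 genes compared (median 0.15). Scp2, the exception among lines, and Adh1 were the most abundant (medians 2075 and 861 FPKM), with rho of 0.06 and 0.23 with Cyp4a10. All 3 electron donor genes found, Cyb5 (median 1321 FPKM), Cyb5r3 (170 FPKM) and Por (62.6 FPKM), differed among lines (edgeR), against 88.5% of all genes. Cyb5 had its highest rho with Cyp4f13 (0.55). In the mouse of IL-2126, which had the lowest Cyp4a12a, Cyb5 and Por were at their highest of all mice, 2474 and 251 FPKM.

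Of the eicosanoid genes, 9 of the 11 tested differed among lines (edgeR), no more than the 88.5% of all genes. The most abundant were Cyp2c29 (median 1198 FPKM), Ephx2 (279 FPKM) and Cyp2j5 (263 FPKM). In this order, their rho was -0.12, 0.18 and 0.57 with Cyp4a14, and 0.33, 0.35 and 0.60 with Cyp4f14. Of the 9 eicosanoid genes compared, 6 were positive with each of these members, against 69.3% (Cyp4a14) and 71.0% (Cyp4f14) of all genes. The median of the 9 was 0.10 with Cyp4a14 and 0.33 with Cyp4f14, against 0.11 and 0.13 over all genes. Of the 6 male-biased genes, all had a positive rho with Cyp4a12a, as did 64.4% of all genes (medians 0.20 and 0.07). Mup20 had 0.15, Cyp2d9 0.38 and Cyp7b1 0.18. None of the 6 had a positive rho with Cyp4a10 (median -0.09), against 73.9% of all genes (median 0.15). All 6 male-biased and all 7 female-biased genes differed among lines (edgeR), as did 6 of 7 genes of growth hormone and androgen signalling, shares near the 88.5% of all genes. Of the latter, Igf1, Ghr and Stat5b were the most abundant, with rho of -0.29, 0.14 and 0.18 with Cyp4a12a.

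Markers of other liver cells were compared with the members in the same way. The 4 Kupffer cell markers found were at medians between 0.92 and 22.0 FPKM. Their median rho was -0.0037 with Cyp4a10, 0.16 with Cyp4a12a and -0.52 with Cyp4f13. Over all genes, the median rho with these members was 0.15, 0.07 and -0.04. All 4 markers were negative with Cyp4f13, where 43.6% of all genes were positive. Markers of other cells were low with Cyp4f13 too. Their median rho was -0.33 for 3 stellate cell markers (0 of 3 positive) and -0.16 for 4 endothelial markers (1 of 4 positive). For the 5 hepatocyte markers it was 0.35. Median rho of the 4 endothelial markers was 0.31 with Cyp4f14 and Cyp4v3 and -0.30 with Cyp4a32. Over all genes it was 0.13, -0.001 and 0.08 with Cyp4f14, Cyp4v3 and Cyp4a32. The endothelial median was near 0 with Cyp4a10 (-0.04) and Cyp4f15 (-0.02). The cholangiocyte markers Krt19, Krt7, Epcam and Sox9 had medians of at most 0.51 FPKM. The part of these cells in the levels was not tested, and in bulk liver fewer cells of a type and less RNA per cell cannot be told apart.

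Isoform use was read from the isoform percentages, the share of each annotated transcript in the expression of its gene. Cyp4a12b and Cyp4f14 have 1 annotated transcript in the files, and Cyp4a14 and Cyp4v3 did not give a transcript that varied enough to be kept. Of the other 6 genes, 3 differed among lines in the percentage of the transcript with the most distinct levels (limma F test on normal scores), where 33.1% of 6652 transcripts did. These were Cyp4a32 (adjusted p = 0.00198), Cyp4a31 (adjusted p = 0.0106) and Cyp4f13 (adjusted p = 0.0214) by limma. Cyp4f15 (adjusted p = 0.0599), Cyp4a12a (0.262) and Cyp4a10 (0.577) were not called.

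The transcript ENSMUST00000084342 of Cyp4a32, with 1530 bases, made up between 54.0% and 94.6% of the gene (median 84.2%), and the shorter ENSMUST00000129918 of 736 bases the rest. Its line mean was lowest in IL-785 (68.1%) and highest in IL-1052 (92.1%), with an SD of 8.56 over lines against 5.98 within lines. For Cyp4a31, ENSMUST00000030480 ran from 17.8% to 100%, with line means of 27.6% in IL-219 and 100% in IL-1061, where Cyp4a31 was at 0.155 FPKM. The percentages at both ends rest on few fragments, with means of 22.4 estimated fragments of Cyp4a31 in IL-219 and 8.46 in IL-1061. Cyp4f13 used ENSMUST00000075253 for 78.8% to 98.0% of its expression in all mice (lowest line mean 86.1% in IL-2011, highest 96.2% in IL-1052).

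Cyp4a10 shows how far apart line mates could be in this measure. ENSMUST00000058785 made up between 21.8% and 100% of Cyp4a10 (median 92.3%), with an SD of 22.6 within lines against 13.3 over line means. The other main transcript of Cyp4a10, ENSMUST00000094886, reached 78.2%. Cyp4f15 was split between ENSMUST00000008801 (61.9% to 87.6%) and ENSMUST00000168171 (10.2% to 30.4%), and ENSMUST00000095328 made up at least 96.1% of Cyp4v3 in every mouse.

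**Figure D5:**
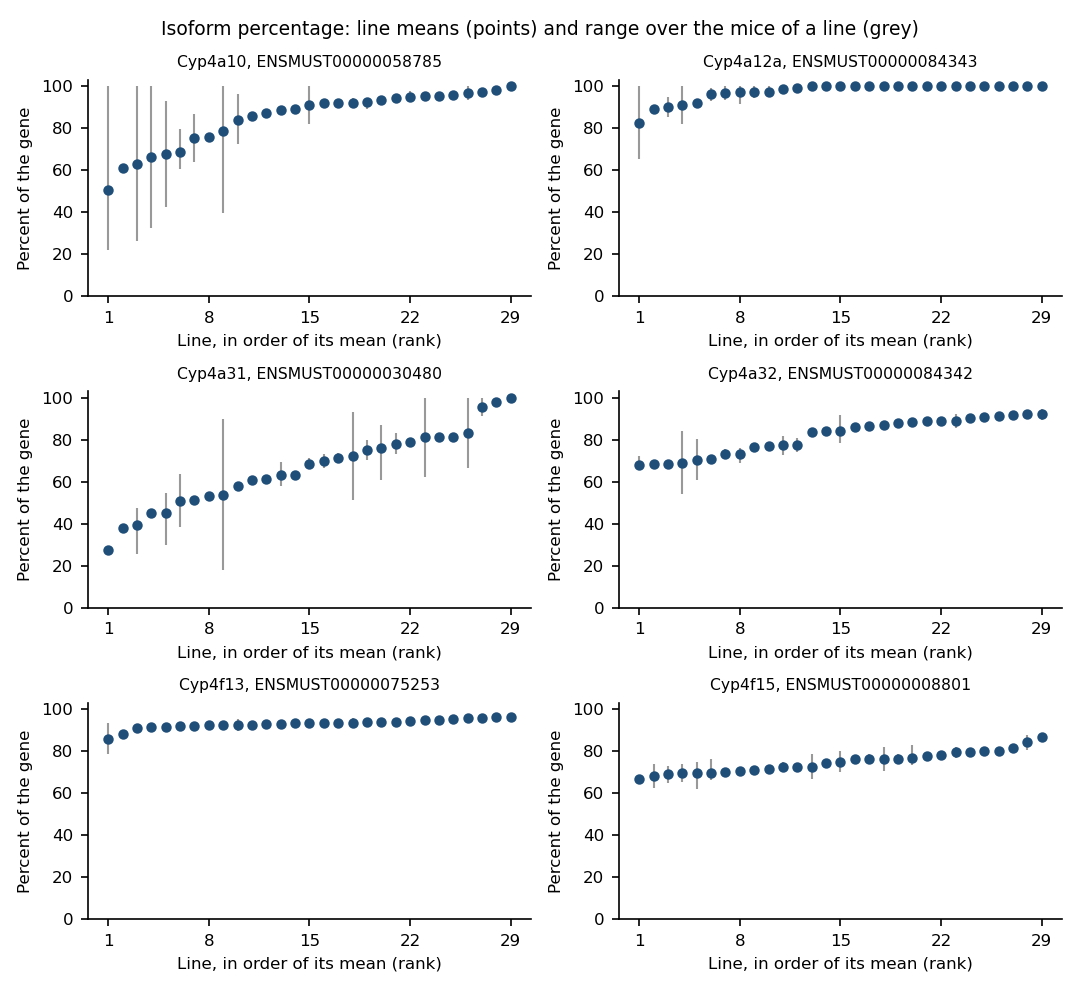
Percentage of the transcript with the most distinct levels of 6 Cyp4 genes, with the mean of each of 29 lines (points) in the order of the means and the range over the mice of a line (grey). Cyp4a32 runs from 68.1% to 92.1% over line means, with the widest range within a line in IL-2680 (54.0% to 84.3%), and the range within single lines of Cyp4a10 spans much of the 21.8% to 100% seen over all mice.

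Body weight and age were tested over the 29 line means, with both as terms in limma. None of the 10 genes was related to either at an adjusted p under 0.05, and 0% of the 10333 genes tested were, for weight as for age. At an unadjusted p under 0.05, 709 genes (6.86%) passed for weight and 579 (5.6%) for age. Relative to its SE, the steepest slope of a member was that of Cyp4a12a with age, -0.43 ± 0.129 (SE) on the log2 scale per week (limma, adjusted p = 0.879). This slope kept its sign with each line left out, between -0.50 and -0.23, and that with weight was 0.06 ± 0.0295 SE per g (adjusted p = 0.715, limma). These p-values do not show that the levels are unrelated to weight or age.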

How the data were processed

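Liver RNA of 55 male CC mice was analysed, with the line taken from each label. According to the methods, the authors read 50 bases from each end of a fragment, aligned the pairs with Bowtie 2 to Ensembl release 67 transcripts (NCBI mouse build 37), and estimated abundance with RSEM, for which the submitters' processing notes give version 1.2.18. RSEM divides a fragment that matches several genes among them. The expected counts were deposited without normalization. RSEM's FPKM and TPM, also deposited, correct for transcript length and library total, and the deposited isoform values give a transcript's percent of its gene. RSEM was run with its default parameters, which do not use strand, although the library kit was stranded. No batch is named, and genotypes were not used here.

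Gene positions and sequences came from the reference of the same build (Ensembl release 65). Expected counts were rounded for edgeR 4.0.16 (TMM, default expression filter, quasi-likelihood F test). limma 3.58.1 was used for isoform percentages and for body weight and age, and DESeq2 1.42.0 as an alternative. As in the study, values were rounded to bins (the maximum over 200, but not under 0.5), and genes with 12 or more levels and a maximum FPKM of 2 or more were kept and given normal scores. Fits with 1 mouse left out reused the trended dispersion of all mice. Adjusted p-values are Benjamini-Hochberg values over all genes, or over the 45 pairs, with a threshold of 0.05. Total counts of 20.5 to 34.0 M fragments set the precision, and FPKM below 1 rest on few fragments. No pair of line mates among 31 had identical counts.

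All 10 members were named, with every other Cyp4 gene, the lowest and highest line of each member, the 3 most similar genes of each, and counts with the 3 most abundant genes of each list, some of which are not reported here. The members and lists were chosen with earlier results of these data known. Xist, Ddx3y and single mice or lines beyond this rule were chosen after their values were seen. The tests were checked on simulated data. R 4.3.3 and Python 3.11.15 were used.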

Additional observations from a re-analysis of the deposited data

How the results depend on the processing

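The 9 of 10 genes that differed among lines were 9 with RLE size factors, without IL-1052 and IL-2750 and without IL-785, 10 without a filter on low counts and with limma on normal scores, 9 of the 9 that DESeq2 tested (it gave no adjusted p for Cyp4a14), 7 of 8 with at least 10 counts in every mouse, 7 of 7 with near-identical genes summed, and 9 or 10 with 1 mouse left out. Genes with an intraclass correlation of at least 0.5 numbered 7 to 10 with 1 mouse left out. Of 6 isoform ratios, 2 to 4 were called over all alternatives. Cyp4a31, with 5.59 estimated fragments in its lowest mouse, was not tested in the alternative with a minimum count in every mouse. Cyp4f13 was lost with untransformed percentages (adjusted p = 0.186, limma). Cyp4f15 passed without IL-1052 and IL-2750 (adjusted p = 0.0378, limma) and with 7 of 47 single mice left out. The pairs called across lines numbered 3 to 5 and within lines 4 to 7. Across lines, Cyp4a12a with Cyp4a12b was lost with TPM (r = 0.48, permutation test, adjusted p = 0.0507) and on residuals from body weight and age (r = 0.39, adjusted p = 0.225, permutation test). Within lines, Cyp4a14 with Cyp4a32 was lost without IL-1052 and IL-2750 (r = 0.60, permutation test, adjusted p = 0.0835). No direction reversed among the correlations called. No gene of the 10 was called for weight or age under any alternative run. The causes were not tested. No paired analysis was possible because the labels give the lines no shared replicate numbers. Levels below 1 FPKM, as in many mice for Cyp4a14 and Cyp4a31, are limited by depth.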
